A study of Mus musculus with 27 samples.

Results

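The comparison described here is that of untreated TAMH cells at 24 h with untreated TAMH cells at 6 h, which rests on 6 of the 27 arrays of the study. TAMH is a mouse hepatocyte line made from animals with a transgene for transforming growth factor alpha, and it is grown without serum in a medium that holds dexamethasone and a mixture of insulin, transferrin and selenium. The members were chosen by title, as the 3 arrays of control cultures at 24 h and the 3 arrays of control cultures at 6 h. The cultures were taken to confluence in 2 dishes per treatment, and the controls then received control medium without compound. The same times are available in cultures given 2 mM acetaminophen (APAP) or 2 mM of its regioisomer AMAP, with 3 arrays at 24 h and 3 at 6 h for each, and the control cultures were also harvested at 2 h (3 arrays). All 27 arrays are Affymetrix Mouse Gene 1.0 ST arrays, and the values are log2 signals of probe sets.

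In their titles, the 3 arrays of each group carry the numbers 30, 31 and 32, each after the letter P. The labels place the cell passages between 25 and 35 but do not say what the numbers count, nor whether the arrays of a group came from separate cultures, so the p-values measure the spread between these samples, which may be technical. A cell line is a single model, and its transgene is shared by every group.

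Cultured liver cells draw nutrients and hormones from their medium, deposit matrix and secrete plasma proteins. Genes known to follow these conditions in liver cells include those of sterol synthesis, which are switched on by the SREBP transcription factors when cell sterol is low, the FOXO targets, which are held down by insulin, the metallothioneins, which are induced by zinc and by glucocorticoids such as dexamethasone, and the clock genes, whose phase is set by a change of medium or by glucocorticoid.

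Few genes passed the test between 24 h and 6 h in control cultures. Of 19938 genes tested, 3 were called at an adjusted p under 0.05 (limma, Benjamini-Hochberg, 0.015% of genes), and all 3 were lower at 24 h. They were Apon, which encodes apolipoprotein N, Col12a1, which encodes the fibril-associated type XII collagen, and Irgm1, which encodes an interferon-inducible immunity-related GTPase. No gene was called higher by limma (0% of genes), against 517 genes higher and 1016 lower at an unadjusted p under 0.05, which together are 7.69% of genes. In control cultures, 24 h and 6 h arrays of the same number deviated together from their group means (correlations of 0.244, 0.157 and 0.269). In treated cultures this did not hold throughout, with correlations of 0.223, -0.0745 and -0.0543 for APAP and 0.109, -0.269 and -0.024 for AMAP. With the number as a block, fitted to the arrays of all cultures together, 34 genes were called (0.171% of genes), 26 lower (0.13%) and 8 higher (0.0401%). These 34 include the 3 named above.

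The intervals of the differences measure the spread between these arrays, which may be technical. They cannot be taken to cover variation between separate cultures, so they do not limit what could have been missed there. They hold for single genes, without adjustment, and use an error estimated from all arrays of the series. The median 95% interval of a difference reached 0.20 on either side on the log2 scale, and in 18648 genes (93.5%) the whole interval lay within 0.5 of zero on either side. The largest difference of any gene was 1.01, and 76 genes (0.381%) differed by more than 0.5, 30 of them higher and 46 lower at 24 h. The median difference over all genes was -0.01. Array medians lay between 7.26 and 7.33, and the root mean square deviation of an array from its group mean lay between 0.0917 and 0.126, the highest being number 32 at 6 h.

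**Figure D1:**
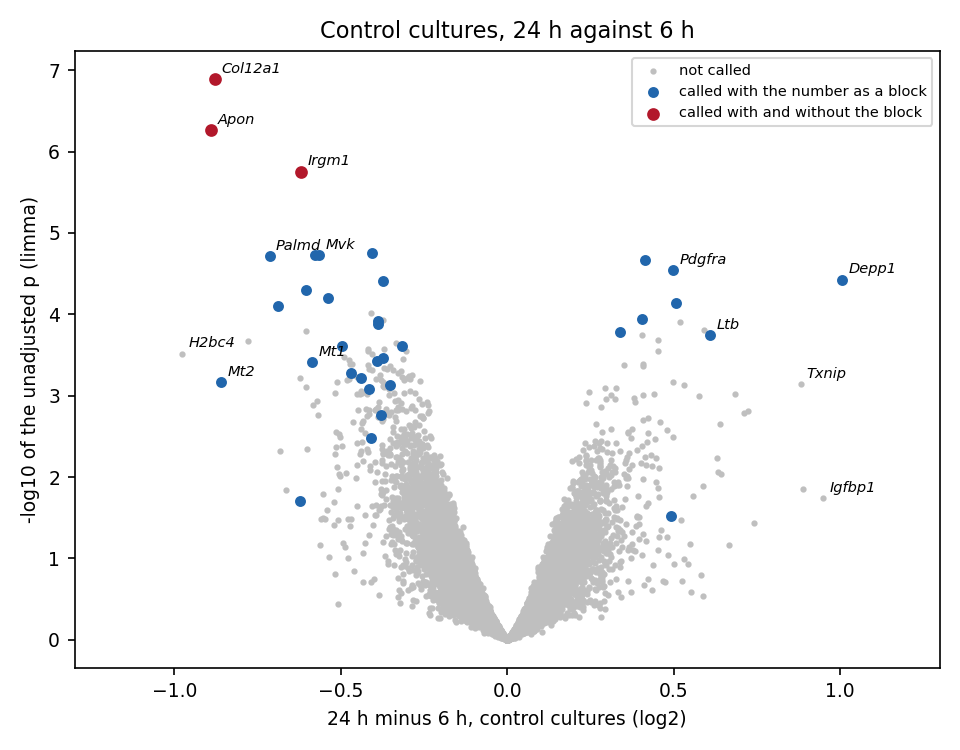
Each point is 1 of 19938 genes, with the log2 difference between 24 h and 6 h in control cultures on the horizontal axis and -log10 of the unadjusted limma p on the vertical axis. The 3 genes in red were called with and without the number as a block and all lie on the left (lower at 24 h), and the 31 in blue were called only with the block, 8 of them on the right.

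Apon encodes a secreted protein of plasma lipoproteins. Its signal was 7.61, 7.62 and 7.62 at 24 h, against 8.30, 8.65 and 8.57 at 6 h (arrays 30, 31 and 32). All 24 h arrays lay below all 6 h arrays, and the 24 h arrays were almost identical. The difference was -0.89 ± 0.13 (SE), or 1.85-fold lower, with an adjusted p of 0.0054 (0.000795 with the number as a block). Of the 18 apolipoprotein and lipoprotein assembly genes measured, Apon was the only one called, and 14 had a positive difference, with a list median of 0.09. Apoa2, which encodes a major apolipoprotein of high-density lipoprotein, had the most positive difference of that list, 0.59, and was not called.

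Col12a1 had 7.23, 7.54 and 7.19 at 24 h, against 8.16, 8.20 and 8.22 at 6 h, again without overlap. The difference was -0.88 ± 0.12, or 1.84-fold lower (adjusted p 0.00255, 0.000795 with the block). Among 39 genes of collagens and extracellular matrix it was the only one called. The list median was 0.06, 27 members had a positive difference, and at an unadjusted p under 0.05 there was 1 lower member, Col12a1 itself, and 1 higher member, Col4a5, a chain of basement membrane collagen (0.32). Col1a1, which encodes a chain of type I collagen, had 7.70, 7.73 and 7.83 at 24 h, against 7.66, 7.70 and 7.70 at 6 h.

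Irgm1, which takes part in autophagy and in the defence of mouse cells against intracellular microbes, had 9.16, 9.41 and 9.11 at 24 h, against 9.66, 10.03 and 9.86 at 6 h. The difference was -0.62 ± 0.10, or 1.54-fold lower (adjusted p 0.0117, 0.00281 with the block). Slfn2, a Schlafen family gene that interferon also induces, had 9.68, 9.93 and 9.95 at 24 h, against 10.28, 10.54 and 10.56 at 6 h, a difference of -0.60 (adjusted p 0.0834, 0.0358 with the block). Interferon-stimulated genes had mostly negative differences, 21 of 26, where 10353 of 19938 genes in all had one. Few of them passed a threshold. Of 26 measured, none was called, and at an unadjusted p under 0.05 there were 2 lower members, Ifit2 (-0.30) and Ifit3 (-0.38), and 1 higher, Sting1 (0.44), while over all genes 5.1% were lower and 2.59% higher at that threshold. The most negative member was Ifit1 (-0.52), and the list median was -0.13. That median was 0.06 between the arrays of number 30, -0.10 between those of number 31 and -0.30 between those of number 32. It thus did not keep its sign between numbers.

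The promoter of Irgm1 is shown because that gene was among the called ones and is a known target of interferon signalling. The sequence covers 250 bases before and 50 after the RefSeq transcription start, on the minus strand at chr11:48871371-48871670 (GRCm38.p6). Capitals mark matches to the core of the interferon-stimulated response element (GAAA, any 2 bases, GAAA), searched on both strands. There were 2 matches, which share bases, at positions -30 and -24 from the start. Of 32851 RefSeq promoter windows of 300 bases, 3.443% hold at least 1 match and 0.225% at least 2.
Irgm1: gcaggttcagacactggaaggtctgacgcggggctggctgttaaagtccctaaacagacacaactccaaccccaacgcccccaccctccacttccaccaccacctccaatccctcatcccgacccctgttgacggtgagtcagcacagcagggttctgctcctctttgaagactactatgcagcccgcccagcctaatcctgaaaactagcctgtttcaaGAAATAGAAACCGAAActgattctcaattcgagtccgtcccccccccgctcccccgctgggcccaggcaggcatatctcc

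Leaving out arrays removed calls. With single arrays or all arrays of a number left out in turn, Col12a1 stayed called in 6 of 9 fits, Apon in 4 and Irgm1 in 2, with differences of -0.99 to -0.80 for Col12a1, -0.99 to -0.82 for Apon and -0.71 to -0.53 for Irgm1. No gene was called by limma without number 32 (1563 at an unadjusted p under 0.05) or without the 24 h array of number 30 (1154). Fitted with the 6 arrays alone, Irgm1 was not called (adjusted p 0.118, and 0.0615 with the block), and Apon and Col12a1 were.

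**Figure D2:**
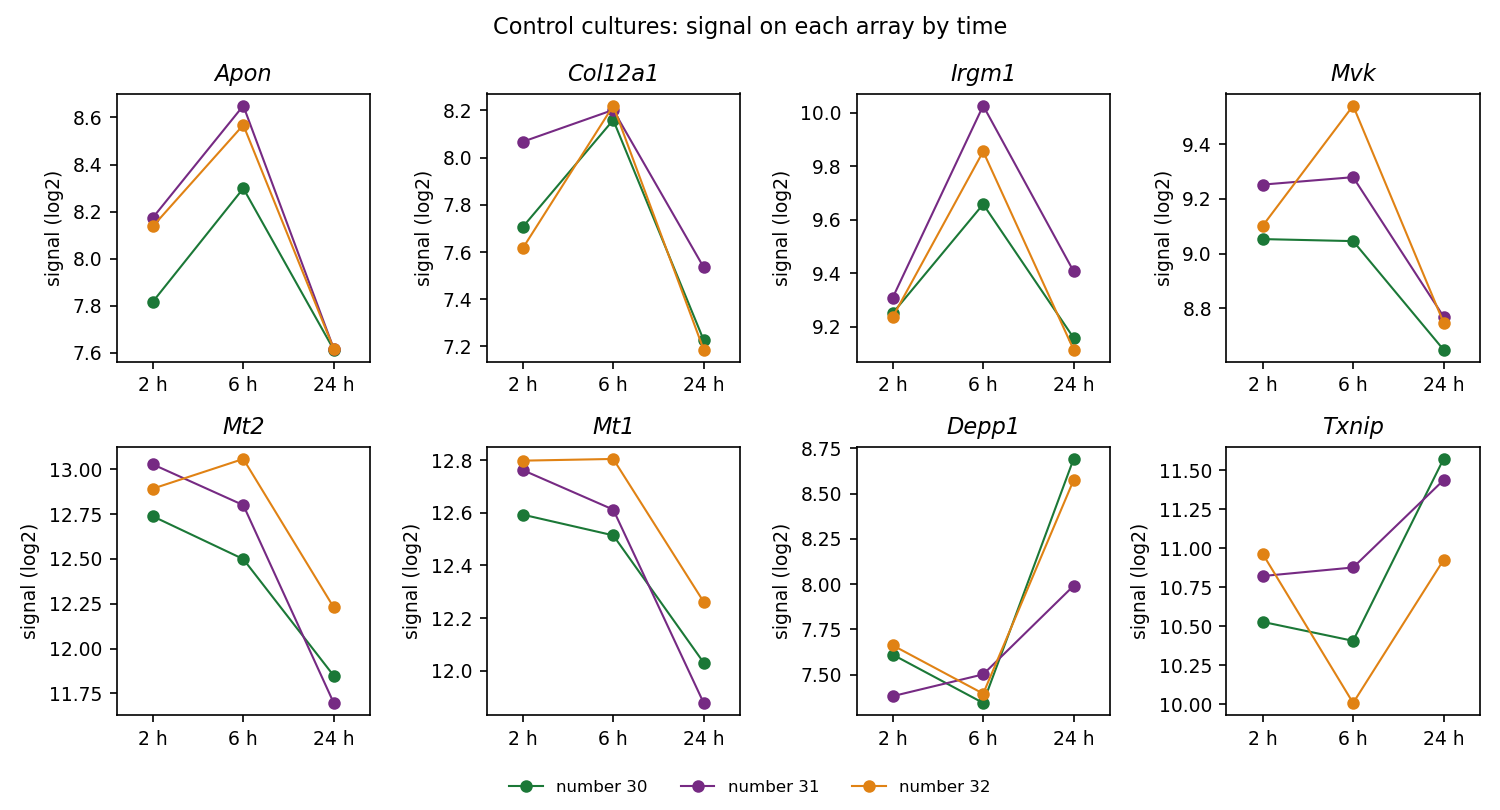
Log2 signal of 8 genes on each of the 9 control arrays at 2, 6 and 24 h, with arrays of the same number joined by a line. Apon, Col12a1 and Irgm1 were highest at 6 h on every line, Mt2, Mt1 and Mvk were lowest at 24 h on every line, and Depp1 was highest at 24 h on every line.

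The signal at 2 h sets these differences beside the earlier course of the cultures. At 2, 6 and 24 h, Apon averaged 8.04, 8.51 and 7.62, Col12a1 averaged 7.80, 8.19 and 7.32, and Irgm1 averaged 9.27, 9.85 and 9.23 (n = 3 arrays each). The 24 h level of Irgm1 was thus close to its 2 h level, while Apon and Col12a1 were below theirs. Slfn2 gave 9.87, 10.46 and 9.86, and Palmd, which encodes the cytosolic protein palmdelphin, gave 8.97, 9.60 and 8.88. Of the 26 genes lower with the block, 23 had a 6 h mean above the 2 h mean and 23 a 24 h mean below the 2 h mean. In 12 of the 26 the 6 h mean was the highest and the 24 h mean lay within 0.2 of the 2 h mean. The 6 h arrays entered the choice of these genes, so the levels are a description and were not tested.

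Both metallothionein genes measured at high signal, Mt1 and Mt2, were lower at 24 h with the block. They encode small cysteine-rich proteins that bind zinc and copper. Mt2 had 11.85, 11.70 and 12.23 at 24 h, against 12.50, 12.80 and 13.06 at 6 h. Mt1 had 12.03, 11.88 and 12.26 at 24 h, against 12.51, 12.61 and 12.80 at 6 h. The groups did not overlap in either gene, and each number gave a lower value at 24 h. The differences were -0.86 ± 0.22 for Mt2 (adjusted p 0.173, 0.0162 with the block) and -0.59 ± 0.14 for Mt1 (adjusted p 0.169, 0.0165 with the block). Mean signals at 2, 6 and 24 h were 12.89, 12.79 and 11.92 for Mt2 and 12.72, 12.64 and 12.06 for Mt1, so the 2 h and 6 h levels lay close together.

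The other 13 genes of the list of metallothioneins and zinc transporters moved in both directions and none was called. The zinc exporter Slc30a1 had a positive difference (0.36), as did the importers Slc39a1 (0.25) and Slc39a8 (0.17), and the importer Slc39a10 had a negative one (-0.38), each at an unadjusted p under 0.05. Of 18 glucocorticoid receptor targets, a list that also holds Mt1 and Mt2, these were the only 2 called with the block. Fkbp5, which encodes a cochaperone that glucocorticoid induces, had 11.33, 11.46 and 11.13 at 24 h, against 11.32, 11.41 and 11.39 at 6 h, a difference of -0.07 with a 95% interval of -0.25 to 0.11. The list median was 0.01.

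The promoters of Mt1 and Mt2 are shown because metallothionein genes are textbook targets of the zinc-sensing factor MTF1. Both are on the plus strand (GRCm38.p6, RefSeq), Mt1 at chr8:94178839-94179138 and Mt2 at chr8:94172368-94172667, with 250 bases before and 50 after the start. Capitals mark matches to TGCACNC or TGCGCNC, the core of the metal response element, searched on both strands. Mt1 held 3 matches, at positions -23, 2 and 20, and Mt2 held 4, at -223 and -128 on the same strand and at -50 and 4 on the opposite strand. The motif is short, and 25.704% of windows hold at least 1 match, 1.969% at least 3 and 0.517% at least 4.
Mt1: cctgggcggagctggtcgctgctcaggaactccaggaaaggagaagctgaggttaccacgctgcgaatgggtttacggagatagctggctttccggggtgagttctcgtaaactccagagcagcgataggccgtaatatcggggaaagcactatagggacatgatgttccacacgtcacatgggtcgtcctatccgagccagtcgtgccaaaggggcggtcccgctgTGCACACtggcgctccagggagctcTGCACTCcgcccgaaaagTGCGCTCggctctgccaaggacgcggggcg
Mt2: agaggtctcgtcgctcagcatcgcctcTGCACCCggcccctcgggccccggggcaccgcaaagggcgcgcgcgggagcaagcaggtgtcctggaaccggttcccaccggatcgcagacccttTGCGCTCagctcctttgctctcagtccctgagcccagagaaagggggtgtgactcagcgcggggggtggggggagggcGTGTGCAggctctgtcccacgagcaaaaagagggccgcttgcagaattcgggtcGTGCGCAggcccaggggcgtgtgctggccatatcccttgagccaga

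Cholesterol synthesis genes had mostly negative differences. Like the other gene lists, this one was chosen with earlier results of these data known. The shares over all genes are therefore not a matched comparison for any list. Of 18 measured, 15 had a negative difference and 8 were lower at an unadjusted p under 0.05 (44.4%, against 5.1% of all genes). None was higher at that threshold, and the list median was -0.21, against -0.01 over all genes. None was called, and 1 was called with the block. This was Mvk, mevalonate kinase, an early enzyme of the mevalonate pathway, with 8.65, 8.77 and 8.75 at 24 h, against 9.05, 9.28 and 9.54 at 6 h. Its difference was -0.57 ± 0.11 (adjusted p 0.0544, 0.00989 with the block). The other 7 were Hsd17b7 (-0.39), the lanosterol synthase gene Lss (-0.35), Mvd (-0.34), Idi1 (-0.32), the squalene synthase gene Fdft1 (-0.31), Pmvk (-0.30) and Fdps (-0.16).

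The size rested largely on 1 number. The list median was -0.11 between the arrays of number 30, -0.07 between those of number 31 and -0.50 between those of number 32. Without number 32, or without its 6 h array, it was -0.09 and -0.07. Srebf1, an SREBP gene, had 10.64, 10.66 and 10.77 at 24 h, against 10.66, 10.76 and 10.92 at 6 h. Fasn, which encodes fatty acid synthase, averaged 10.85 ± 0.08 at 24 h and 11.08 ± 0.28 at 6 h (SD, n = 3 each), with number 32 at 6 h, at 11.39, above the other 5 arrays.

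A list of TGF beta ligands, receptors and targets, with targets of the mechanosensitive coactivator YAP, also had mostly negative differences. Of 26 measured, 9 were lower (34.6%, against 5.1% of all genes) and 1 higher at an unadjusted p under 0.05, none was called, and the list median was -0.20. It was -0.16, -0.20 and -0.17 between the arrays of numbers 30, 31 and 32, and -0.23 to -0.13 over all alternatives. Tgfbr1, the type I receptor, had 9.71, 9.87 and 9.94 at 24 h, against 10.44, 10.25 and 10.70 at 6 h (difference -0.62, adjusted p 0.173, 0.114 with the block). Further lower members were the matricellular genes Ccn1 (-0.55), Ccn4 (-0.51) and Thbs1 (-0.49), the feedback inhibitors Pmepa1 (-0.51) and Skil (-0.44), and the ligand gene Tgfb2 (-0.40). The higher member was the ligand gene Tgfb1, with 8.33, 8.24 and 8.41 at 24 h, against 7.95, 7.73 and 8.08 at 6 h. Its difference was 0.41 ± 0.09 (adjusted p 0.125, 0.0358 with the block). The 2 ligand genes thus differed in direction.

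NRF2 targets and glutathione genes, which supply and use reduced glutathione, gave 11 lower (31.4%, against 5.1% of all genes) and 2 higher (5.71%, against 2.59%) of 35 at an unadjusted p under 0.05, none called, with a list median of -0.14. The lower members included Gclm (-0.46), the modifier subunit of the rate-limiting enzyme of glutathione synthesis, the glutathione reductase gene Gsr (-0.34), Pgd of the pentose phosphate pathway (-0.33) and Gss, glutathione synthetase (-0.21). The higher members were the efflux pumps Abcc2 (0.29) and Abcc1 (0.22). Hmox1, heme oxygenase 1, had 8.59, 8.64 and 8.92 at 24 h, against 8.74, 8.88 and 8.79 at 6 h. Ribosome biogenesis genes had a negative difference in 31 of 32 members. Of these, 5 were lower at an unadjusted p under 0.05 (15.6%, against 5.1% of all genes) and none was called. The median of that list was -0.16.

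**Figure D3:**
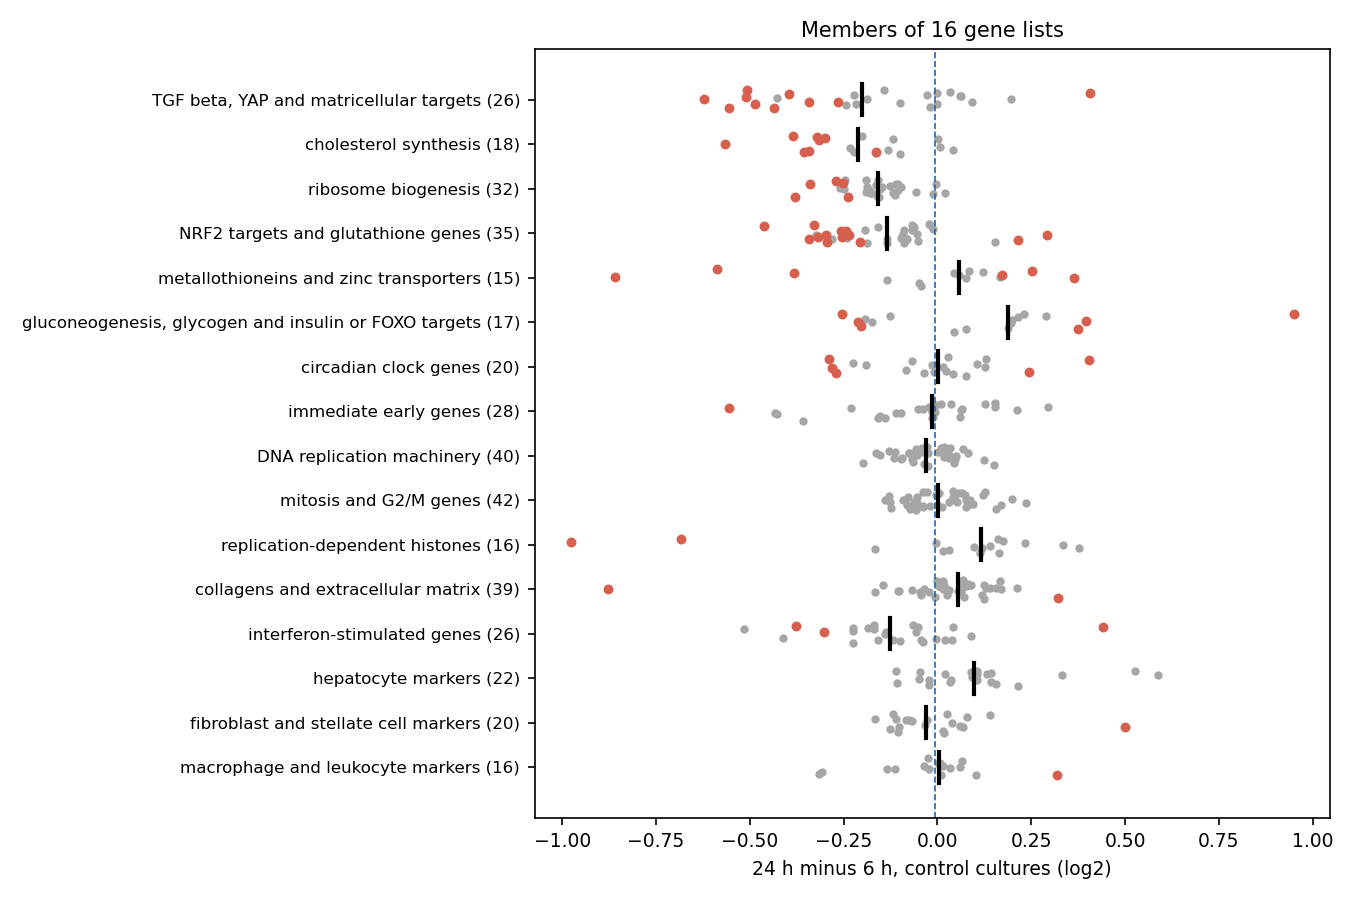
Log2 difference between 24 h and 6 h in control cultures for the members of 16 gene lists, with the number of measured members in brackets. Red points have an unadjusted p under 0.05, grey points do not, black bars are list medians and the dashed line is the median of all genes (-0.01). The medians of the cholesterol synthesis, TGF beta, ribosome biogenesis and NRF2 lists lie left of the line, between -0.21 and -0.14.

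On the higher side, 8 genes were called with the block. Depp1, a FOXO target that takes part in autophagy, had the largest difference of all genes, with 8.69, 7.99 and 8.57 at 24 h, against 7.34, 7.50 and 7.39 at 6 h. All 24 h arrays were higher, and the array of number 31 was the least so. The difference was 1.01 ± 0.20, or 2.01-fold higher (adjusted p 0.0703, 0.0439 with the block). Pdgfra, which encodes a platelet-derived growth factor receptor, had 8.56, 8.41 and 8.28 at 24 h, against 7.90, 7.96 and 7.88 at 6 h (difference 0.50, adjusted p 0.0631, 0.0344 with the block). Ltb, which encodes lymphotoxin beta, had 10.15, 9.71 and 9.97 at 24 h, against 9.45, 9.05 and 9.50 at 6 h (0.61, adjusted p 0.139, 0.00349 with the block). Adam23 had 8.52, 8.23 and 7.84 at 24 h, against 8.06, 7.64 and 7.41 at 6 h. It is the only one of the 34 whose groups overlapped, and its call rested on the block (adjusted p 0.59 without it, 0.00281 with it). The remaining 4 were Tgfb1, the tetraspanin gene Tspan2 (0.51), N4bp2l1 (0.41) and the lysosomal sialidase gene Neu1 (0.34).

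Igfbp1 and Txnip, 2 genes of a panel of 26 chosen with earlier results known, had large differences that did not pass. Igfbp1, which encodes a secreted binding protein of insulin-like growth factors and is repressed by insulin, had 10.63, 9.80 and 9.97 at 24 h, against 9.10, 8.95 and 9.50 at 6 h. The difference was 0.95 ± 0.38 (adjusted p 0.509, 0.427 with the block). Txnip, a thioredoxin-binding arrestin that follows glucose, had 11.57, 11.44 and 10.93 at 24 h, against 10.41, 10.88 and 10.01 at 6 h (0.88 ± 0.23, adjusted p 0.18, 0.077 with the block). Both were higher at 24 h within each number, and arrays of a group spread widely. Pck1, the gene of a gluconeogenic enzyme, had 6.88, 6.93 and 6.88 at 24 h, against 6.56, 6.76 and 6.77 at 6 h. The list of gluconeogenesis, glycogen and FOXO targets holds Igfbp1 and Pck1, and had 3 higher and 3 lower of 17 at an unadjusted p under 0.05 (17.6% each, against 2.59% and 5.1% of all genes). Txnip is in the list of alpha-arrestins, where Arrdc2 was also higher (0.27) and Arrdc3 lower (-0.40) of 8 measured.

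The remaining genes lower with the block were of mixed function and were named after their values were seen. Hpgd, the prostaglandin-inactivating dehydrogenase, had 6.68, 6.46 and 6.46 at 24 h, against 7.10, 6.92 and 7.19 at 6 h (-0.54, adjusted p 0.00989 with the block). Slco2a1, the prostaglandin uptake transporter, had 10.88, 10.71 and 10.85 at 24 h, against 11.28, 11.05 and 11.34 at 6 h (-0.41, adjusted p 0.0445 with the block). Both genes act in the removal of prostaglandins, and neither was called without the block. In the 9 block fits with arrays left out, Hpgd was called in 3 and Slco2a1 in 0. Palmd had 8.83, 8.99 and 8.83 at 24 h, against 9.61, 9.74 and 9.44 at 6 h (-0.71). Ppp2r2b, a regulatory subunit of protein phosphatase 2A, differed by -0.69, and Xdh, the xanthine dehydrogenase of purine breakdown, by -0.62. Rpp38, a protein of ribonuclease P, had 9.92, 9.83 and 9.97 at 24 h, against 10.37, 10.33 and 10.43 at 6 h, with little spread in either group. The rest (Rmdn2, Rab32, Pik3r3, Ablim1, Rbks, Nt5dc1, Lmo4, Osbpl3, Zdhhc4, Peg3, Myo15b, Magi3 and Tmem80) differed by -0.58 to -0.32. In 33 of the 34 genes the groups did not overlap. Over all genes the 24 h arrays lay wholly below the 6 h arrays in 8.55% and wholly above in 5.58%, and since the rule of the block selects for such genes, nothing was read from that count.

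The 34 calls with the block were not stable to the loss of arrays. With single arrays or numbers left out the block gave 0 to 12 calls, and none without number 32. Apon and Col12a1 stayed called in 7 of the 9 fits and Irgm1 in 6. Mvk and Depp1 were called in 2 of them, and Mt1 and Mt2 in 1. Of the 34 genes, 16 were called in none of these fits. These 16 include Slfn2, Pdgfra, Tgfb1, Neu1, Slco2a1 and Rpp38. With the 6 arrays alone and the block, 10 genes were called (0.0502%), 5 of them among the 34.

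No hepatocyte marker, DNA replication, mitosis or respiratory chain gene on the lists reached an unadjusted p under 0.05, whereas the replication-dependent histone genes H2bc4 (-0.98) and H1f2 (-0.68) did. Alb, which encodes albumin, had 13.75, 13.73 and 13.71 at 24 h, against 13.72, 13.62 and 13.75 at 6 h, with a 95% interval of -0.17 to 0.24 for the difference. Hnf4a, a hepatocyte transcription factor, had 10.66, 10.55 and 10.16 at 24 h, against 10.52, 10.64 and 10.55 at 6 h (-0.38 to 0.15). The differences of the 22 hepatocyte markers lay between -0.11 (Hnf4a) and 0.59 (Apoa2), with 95% intervals that reached up to 1.12 on either side. Their list median was 0.10, and between the arrays of numbers 30, 31 and 32 it was 0.22, 0.06 and -0.08. Mki67, a marker of cycling cells, had 11.44, 11.48 and 11.31 at 24 h, against 11.39, 11.24 and 11.22 at 6 h (interval -0.07 to 0.32). Ccnd1, cyclin D1, had 12.01, 11.96 and 11.83 at 24 h, against 11.80, 11.92 and 11.92 at 6 h (-0.15 to 0.25). The differences of the 40 DNA replication genes and the 42 mitosis genes lay between -0.20 and 0.23, and those of the 32 respiratory chain genes between -0.11 and 0.08. In bulk samples, fewer cells of a type and less RNA per cell cannot be told apart.

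No marker of the other cell types examined was called without the block, and Pdgfra, a fibroblast and stellate cell marker, was called with it. At an unadjusted p under 0.05, 2.59% of all genes were higher and 5.1% lower. The 16 macrophage and leukocyte markers had mean signals of 6.35 to 6.42 on the 24 h arrays and 6.30 to 6.46 on the 6 h arrays, with 1 member, Cd79a, higher (0.32) at an unadjusted p under 0.05. The 12 endothelial markers had mean signals of 6.25 to 6.36 at 24 h and 6.20 to 6.33 at 6 h, with 1 member, Stab1, lower (-0.15). The 20 fibroblast and stellate cell markers had mean signals of 7.28 to 7.34 at 24 h and 7.26 to 7.34 at 6 h, and the only member past that threshold was Pdgfra. The 11 biliary and progenitor cell markers had mean signals of 8.84 to 8.99 at 24 h and 8.90 to 9.01 at 6 h, with Prom1 higher (0.33) and Sox9 lower (-0.31) at that threshold (9.09% each). Krt19, a keratin of bile duct cells, had the most negative difference of that list, -0.48, with 9.50, 9.29 and 9.41 at 24 h, against 9.78, 9.88 and 9.97 at 6 h. A log2 array signal has no true zero, so these levels do not show absence.

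Clock and immediate early genes were compared because they respond to a change of medium. Of 20 clock genes, 2 were higher (10%, against 2.59% of all genes) and 3 lower (15%, against 5.1%) at an unadjusted p under 0.05, and none was called. Nr1d2, a repressor of the clock, differed by 0.40 and Dbp, a clock output factor, by 0.24, with 7.43, 7.27 and 7.48 at 24 h, against 7.15, 7.13 and 7.16 at 6 h. Per2, a clock repressor, had 7.69, 7.64 and 7.70 at 24 h, against 7.97, 8.01 and 7.90 at 6 h (-0.28, adjusted p 0.339), and Cry1 (-0.27) and Noct (-0.29) were the other 2. Nr1d1 and Per1 differed by 0.08 and -0.08. Of 28 immediate early genes only Ccn1 passed the unadjusted threshold. Fos had 7.25, 7.09 and 7.23 at 24 h, against 7.10, 7.20 and 7.32 at 6 h. Egr1 and Myc, growth-factor-induced transcription factors, averaged 7.05, 7.91 and 8.13 and 10.87, 11.67 and 11.51 at 2, 6 and 24 h, so most of their range lay before 6 h, with differences after it of 0.21 and -0.16.

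Of the 26 genes of the panel, 24 were matched, and none was called with limma. At an unadjusted p under 0.05 there were 8, a threshold that 7.69% of all genes passed. Tgfa, the gene of the growth factor that the transgene encodes, had 9.75, 9.59 and 9.86 at 24 h, against 9.40, 9.43 and 9.61 at 6 h (0.26 ± 0.09, adjusted p 0.45). Whether the probe set also reads the transgene is not given in the sources used here. Its receptor gene Egfr had 10.84, 10.94 and 10.91 at 24 h, against 11.01, 11.11 and 11.16 at 6 h (-0.19, adjusted p 0.631). Asns, asparagine synthetase, a target of the amino acid response, had 11.07, 11.42 and 11.51 at 24 h, against 11.36, 11.83 and 11.88 at 6 h (-0.36, adjusted p 0.608). Cdkn1b differed by 0.02, and both of its probe sets gave 0.02. Cyp2e1 was dim, with 5.09 to 5.28 at 24 h and 5.20 to 5.39 at 6 h.

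The treated cultures give the same 2 times on arrays that do not enter the control means, although all 27 arrays share 1 estimate of the error, so the calls in the 3 kinds of culture are not independent. Between 24 h and 6 h, 1535 genes were called in APAP cultures (7.7%) and 99 in AMAP cultures (0.497%), against 3 in control cultures (0.015%). Of the 34 genes called in controls with the block, 32 had the same sign in APAP cultures and 34 in AMAP cultures, where 63.7% and 62.0% of all genes did. Of the 34, 17 were called in the same direction in APAP cultures and 10 in AMAP cultures. Of all genes, 7.7% and 0.497% were called there in either direction. The 34 were selected for differences that were large for an error estimated partly from the treated arrays. The shares over all genes are therefore not a matched comparison. Across all genes the differences in control cultures correlated at r = 0.46 with those in APAP cultures and at 0.46 with those in AMAP cultures (n = 19938 genes, which are not independent replicates, and the cultures share the numbers, medium and arrays' design).

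Apon was lower at 24 h in all 3 kinds of culture, by -0.89 in control, -0.69 in APAP (adjusted p 0.00211) and -0.62 in AMAP cultures (0.0345). Depp1 was higher by 1.01 in control, 1.29 in APAP (adjusted p 0.000362) and 1.43 in AMAP cultures (0.00123). Mvk was lower by -0.57, -0.77 and -0.47, called in APAP and in AMAP cultures. Txnip, not called in controls (0.88), was called higher in APAP cultures (1.06, adjusted p 0.00516) and in AMAP cultures (1.15, 0.0237). Mt1 differed by -0.59, -0.48 and -0.44 and was called in APAP cultures (0.0401). Irgm1 differed by -0.62 in control, -0.06 in APAP and -0.26 in AMAP cultures, and the difference between the changes of APAP and control cultures, 0.56, had an adjusted p of 0.267.

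**Figure D4:**
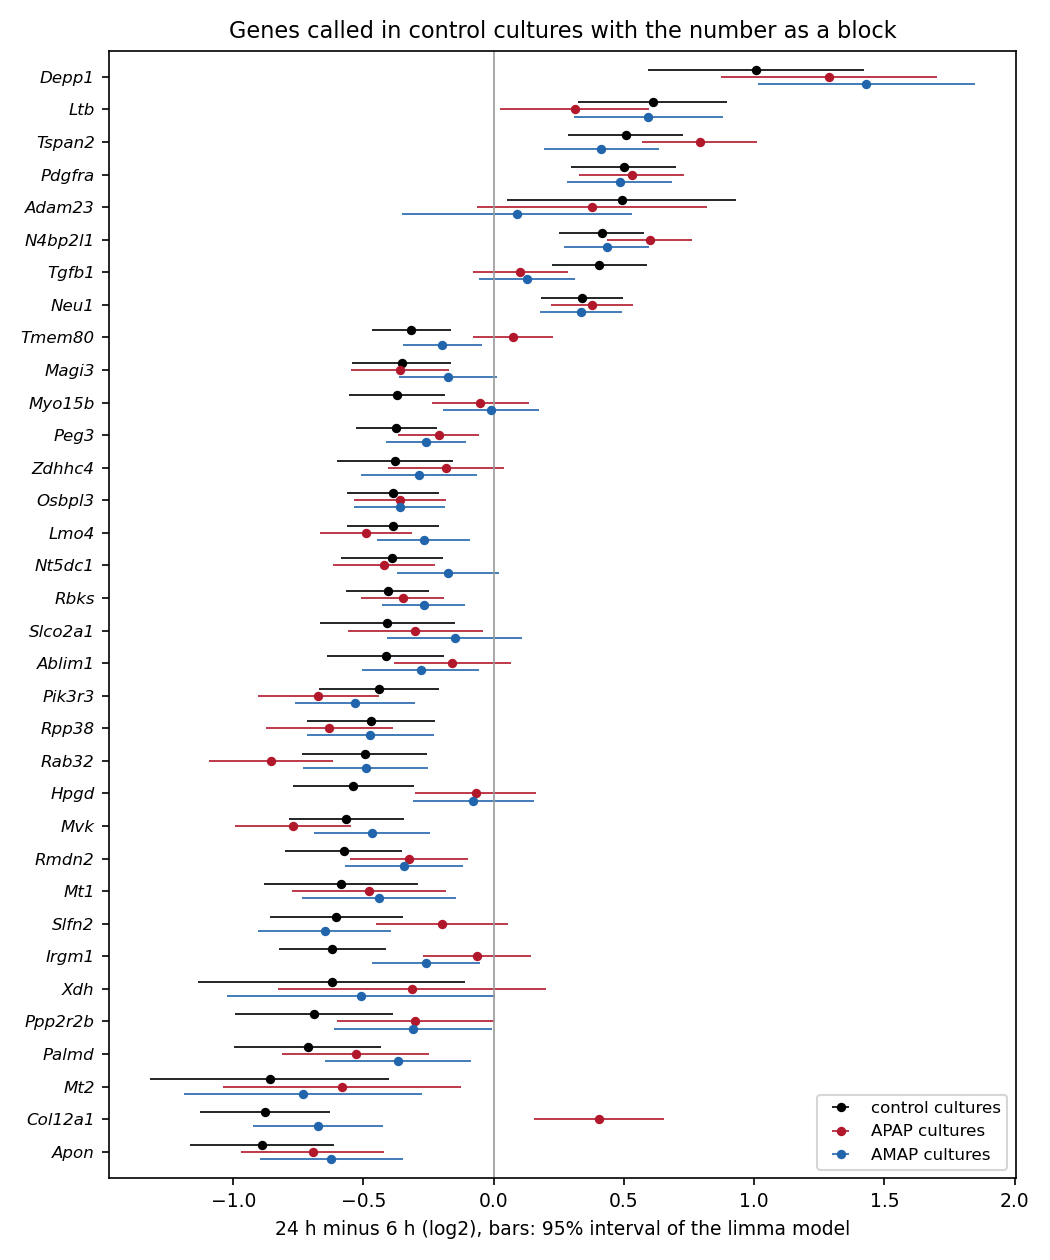
Log2 difference between 24 h and 6 h, with the 95% interval of the limma model, for the 34 genes called in control cultures with the number as a block, in control (black), APAP (red) and AMAP cultures (blue). Most genes lie on the same side of zero in all 3, and Col12a1 lies at -0.88 in control, 0.40 in APAP and -0.67 in AMAP cultures.

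Whether the change between times differed from that in controls was tested directly. For APAP against control, 2 genes were called (0.01%), Col12a1 and Ces2e, and for AMAP against control limma called none (0%), with 691 at an unadjusted p under 0.05. Col12a1 had 8.69, 8.35 and 8.66 at 24 h, against 8.12, 8.15 and 8.22 at 6 h in APAP cultures, a rise of 0.40 (adjusted p 0.0408). In AMAP cultures it had 7.16, 7.22 and 7.24 at 24 h, against 7.79, 8.04 and 7.80 at 6 h, a fall as in controls (-0.67, adjusted p 0.0196). The change in APAP cultures exceeded that in controls by 1.28 (95% interval 0.93 to 1.63, adjusted p 0.00073). Ces2e, a carboxylesterase gene, had 10.94, 11.06 and 10.79 at 24 h, against 9.96, 10.07 and 10.01 at 6 h in APAP cultures. In controls it had 10.14, 10.12 and 10.06 at 24 h, against 9.88, 10.04 and 10.00 at 6 h (0.13, adjusted p 0.669), so the change in APAP cultures exceeded that in controls by 0.78 (0.58 to 0.99, adjusted p 0.000364, and 0.079 with the 12 arrays alone). A missed threshold does not show that the other genes changed alike.

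**Figure D5:**
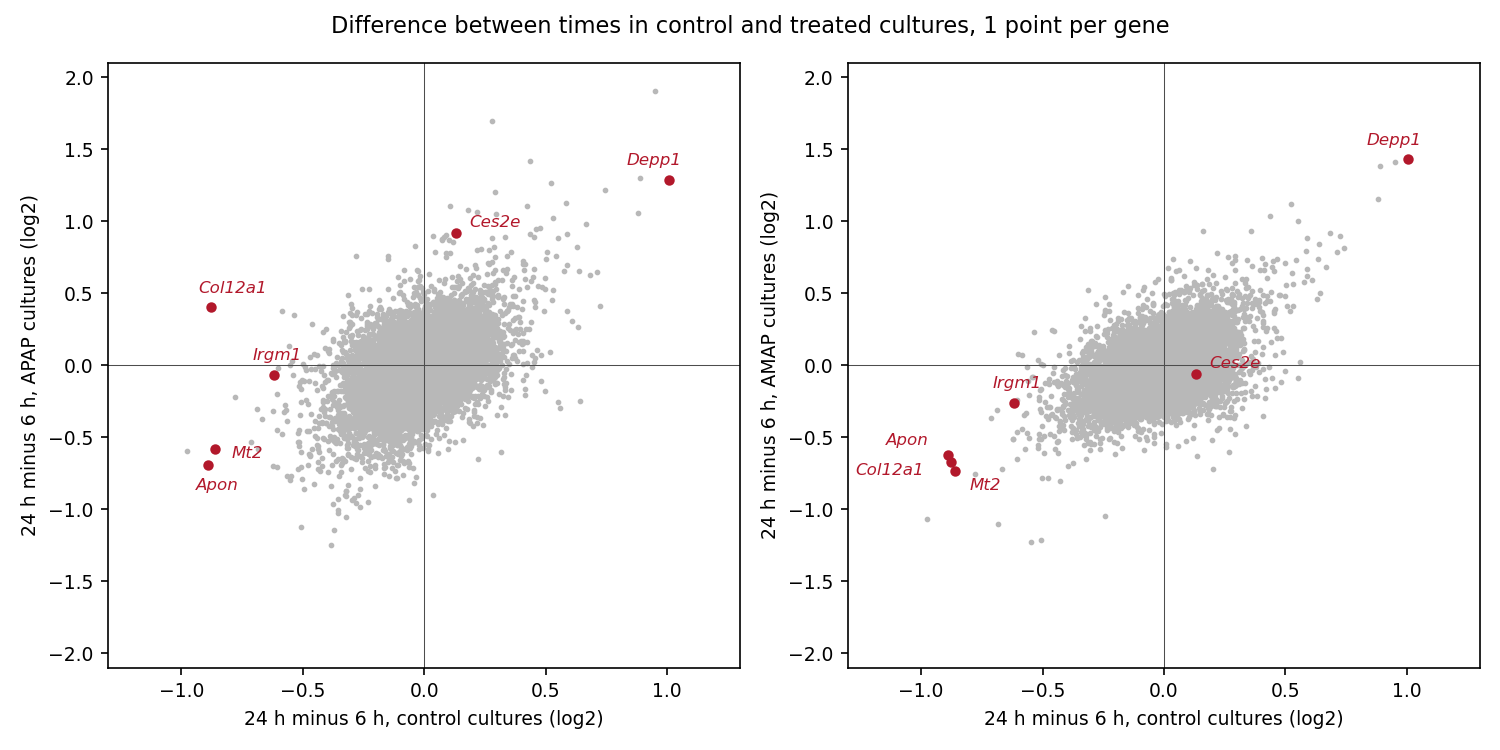
Each point is 1 gene, with the log2 difference between 24 h and 6 h in control cultures on the horizontal axis and in APAP (left) or AMAP cultures (right) on the vertical axis. Col12a1 is at -0.88 and 0.40 in the left plot and at -0.88 and -0.67 in the right one, and Ces2e is at 0.13 and 0.92 in the left plot and at 0.13 and -0.06 in the right one.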

How the data were processed

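Total RNA of TAMH cells was hybridised to 27 Affymetrix Mouse Gene 1.0 ST arrays. Per the submitters' processing notes, the authors processed the arrays with RMA in Affymetrix Expression Console 1.1, and the deposited values are log2 signals, 1 for each probe set on each array. That the base is 2 follows from their range, and the sources used here do not give the summarisation level. Of 35557 probe sets, 21789 carried a single gene symbol, 1621 several and 12147 none. The probe set with the highest mean was kept for each of 19938 genes (999 had more than 1).

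With limma 3.58.1 (R 4.3.3), 9 group means were estimated from the 27 arrays (18 residual and 7.30 prior degrees of freedom). Tests were two-sided, and a call means an adjusted p under 0.05 (Benjamini-Hochberg). The fit was tested on simulated arrays with known differences. In control cultures the deviations of same-numbered arrays from their group means correlated at 0.244, 0.157 and 0.269 for numbers 30, 31 and 32. Values with the number as a block are therefore given where they change a call. Those of other numbers correlated at -0.258 to 0.0496. Deviations cancel within a group, so positive values for same numbers lower those for other numbers, and the second range adds no separate support.

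The members and the 48 gene lists (1116 of 1219 entries matched) were chosen with earlier results of these data known. Named genes were the 12 largest changes each way among called genes without overlap and with a mean of at least 6, up to 4 called members of a list, a panel of 26 genes, and up to 6 genes each way called in a difference between cultures. Genes called only with the block, and uncalled list members, were named after their values were seen. Promoters come from RefSeq (GRCm38.p6). The number of arrays limits the precision. Alternatives covered the block, the arrays fitted, scaling, dim genes, probe set choice, the variance prior and arrays left out.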

Additional observations from a re-analysis of the deposited data

Results flagged for a closer look

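In 2 genes the change between 24 h and 6 h differed between APAP and control cultures by a test of the difference itself. For Col12a1 the change in APAP cultures minus that in controls was 1.28 (adjusted p 0.00073, limma). The 24 h arrays lay above the 6 h arrays in APAP cultures and below them in control cultures. The difference was 1.17 to 1.49 over 15 fits with arrays left out and was called in 13 of them, the exceptions being those without number 30 (adjusted p 0.312) and without number 32 (0.182). For Ces2e the corresponding value was 0.78 (adjusted p 0.000364). Over 9 alternatives in normalization, filter, block or groups fitted it was called in 8 and lost with the 12 arrays alone (adjusted p 0.079). It was 0.72 to 0.85 with arrays left out, called in 12 of 15 fits, and was lost without number 30 (adjusted p 0.236), without number 31 (0.251) and without number 32 (0.0985).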

How the results depend on the processing

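The direction of every named gene that was called in any setting was the same in all alternatives run. For control cultures the 3 calls became 34 with the number as a fixed block, 14 with it as a random block (consensus correlation 0.0408), 6 with the 6 arrays alone, 10 with these arrays and the block, 6 with median centring, 12 among genes with a mean of at least 6 and 11 with a trended robust prior. All 3 genes stayed called in each of these but those of the 6 arrays, which called 2 of them. Without single arrays or numbers there were 0 to 4 calls, and 0 to 12 with the block. Leaving out arrays under the block was an alternative added after seeing the data. The counts without the block were 0 without the 24 h array of number 30 and without number 32, and 1 without the 6 h array of number 31, without that of number 32 and without number 31.

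The 1535 calls of APAP cultures became 270 with their 6 arrays alone and 99 with these and the block, and 137 to 2084 with arrays left out. The 99 calls of AMAP cultures became 263 with the block, 152 with the random block, 12 with 6 arrays, 6 with these and the block, 172 among genes with a mean of at least 6, and 0 to 81 with arrays left out. In these cultures arrays of the same number did not deviate together throughout (correlations of -0.0745 to 0.223 for APAP and -0.269 to 0.109 for AMAP). The 2 calls of APAP minus control became 12 with the block, 5 with the random block, 1 with the 12 arrays alone, 4 with these and the block, 12 with quantile normalization, 6 with median centring, 6 among brighter genes, 6 with the trended prior, and 0 to 4 with arrays left out. AMAP minus control gave 0 calls throughout, with 691 genes at an unadjusted p under 0.05 in the limma model. Fits with arrays left out have fewer samples, and the cause of the other shifts was not tested. Among single genes, 992 values under an alternative stayed on the same side of the threshold within the replicate spread, 72 gained a call, 23 lost one and 4 moved without a call. Of 864 list medians, 39 moved by more than the spread between numbers. Depth in the sense of read counts does not apply to these arrays, and detection calls were not analysed here.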

Other observations

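Other genes, named here after their values were seen, differed by more than most without passing the threshold in the model of 27 arrays. H2bc4, a replication-dependent core histone gene, had 8.85, 8.93 and 8.52 at 24 h, against 9.54, 9.93 and 9.75 at 6 h, without overlap. Its difference in control cultures was -0.98 ± 0.23 (SE, adjusted p 0.16 with limma, 0.0699 with the number as a block), the most negative of all genes. With the 6 control arrays alone it was called (adjusted p 0.0387, and 0.0443 with the block). It was -0.60 in APAP cultures (adjusted p 0.125) and -1.06 in AMAP cultures (0.0371). The linker histone gene H1f2 had 9.09, 9.12 and 9.41 at 24 h, against 9.78, 9.89 and 10.00 at 6 h. Its adjusted p was 0.363 (0.0884 with the block), and 0.0777 with the 6 arrays alone (0.0443 with the block). Of the 16 histone genes of the list these were the only 2 at an unadjusted p under 0.05 (12.5%, against 5.1% of all genes lower), while 12 had a positive difference, and the list median was 0.12.

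Tfrc, the transferrin receptor gene, had 10.48, 10.84 and 11.04 at 24 h, against 9.77, 10.17 and 10.48 at 6 h. The groups overlapped slightly, but the 24 h array was higher within each number (0.64 ± 0.23, adjusted p 0.435, 0.0649 with the block). In APAP cultures Tfrc differed by -0.25 (adjusted p 0.593) and in AMAP cultures by 0.50 (0.326). Jup, the junction protein plakoglobin (-0.41), Krt8, a keratin of simple epithelia (-0.35), and Hspb8, a small heat shock protein (-0.44), were lower at an unadjusted p under 0.05. Of 23 cell junction and keratin genes, 2 were lower (8.70%, against 5.1% of all genes) and 1 higher (4.35%, against 2.59%) at that threshold. None of the 23 was called, and their list median was -0.01. Of 17 cytosolic heat shock genes, 16 had a negative difference, 3 at that threshold (5.1% of all genes were lower), with a list median of -0.09. None of 31 complement and coagulation genes reached it, and their list median was 0.12.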
